A study of Mus musculus with 24 samples.

Results

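The first 4 h of the dark phase, when nocturnal mice become active and begin to feed, were examined in the ventral tegmental area (VTA), the midbrain region whose dopamine neurons signal reward and motivation. The comparison set the 4 arrays labelled ZT16 against the 4 labelled ZT12, 8 of the 24 arrays, and covered every probe set to which the array's annotation gives a gene. Zeitgeber time (ZT) counts hours from lights-on, so under 12 h of light and 12 h of dark ZT12 is the hour of lights-off and ZT16 lies 4 h later. All mice were C57BL/6N males (WT) of 10-12 weeks with free access to standard chow, and each array measured tissue punched from a brain slice of 1 mouse. The arrays of ZT4 and ZT0, the first 4 h after lights-on, served as a second step of the same length, and ZT8 and ZT20 place both steps within the day. The labels give these times at intervals of 4 h, whereas the methods of the study state 6-h intervals, and the labels were followed. A punch holds neurons, glia and vessels together, so fewer cells of a type and less RNA per cell cannot be told apart in these values.

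At lights-off several signals reach the brain of a mouse together. Cells of the circadian clock pass through a set phase of the loop in which CLOCK and BMAL1 (Arntl) drive the Per, Cry and Rev-erb (Nr1d1, Nr1d2) repressors. Corticosterone is high around the onset of activity in nocturnal rodents and acts through glucocorticoid receptors on genes such as Sgk1, Tsc22d3 and Klf9. Body and brain temperature are higher in the active phase. Heat shock proteins are made under the control of HSF1 when temperature or protein damage increases, and the cold-inducible RNA-binding proteins Cirbp and Rbm3 respond to temperature in the opposite sense.

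No transcript passed the test between ZT16 and ZT12. Of 23410 transcripts (probe sets with a gene), 0 (0%) had a Benjamini-Hochberg adjusted p under 0.05 in the limma fit of all 24 arrays as 6 time points, and the smallest adjusted p from limma was 0.634. An unadjusted p under 0.05 was reached by 1071 transcripts (4.57%), 562 higher (2.4%) and 509 lower (2.17%) at ZT16. That is no more than a threshold of 0.05 passes when no transcript differs. In 710 transcripts (3.03%) the 4 arrays of one time point all lay above the 4 of the other, with ZT16 above in 283 (1.21%) and below in 427 (1.82%). With 4 arrays each, some transcripts separate in this way without any difference between the time points. Differences were small: 95% of them lay between -0.19 and 0.20 on the log2 scale, and the median was -0.01. The median standard error was 0.09, so that the 95% interval of a typical transcript reached 0.19 to each side of its estimate. Changes within that width could not be detected with 4 mice per time point, and larger ones could also miss the adjusted threshold. Hspa1a, for example, differed by 0.45 and had an adjusted p of 0.712 from limma.

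Only 10 transcripts differed by more than 0.5 log2 units. The 6 that were higher at ZT16 were 3 probe sets of Trdn (0.83, 0.58 and 0.54), the small RNAs Mir376b (0.54), Mir297b (0.54) and Snord61 (0.55), and the 4 that were lower were Lsm5 (-0.65), a probe set of both Gtf3c2 and Mpv17 (Gtf3c2;Mpv17, -0.60), Zfp980 (-0.53) and Fabp7 (-0.52). All but Fabp7 lay below the median level of 6.76, and in all but Mir376b the time points overlapped. Of Trdn, the muscle protein triadin, and Lsm5, other probe sets differed by less, for example -0.10 for Lsm5 and 0.17 for the most strongly detected one of Trdn. The smallest p values also belonged to weakly detected probe sets. Esm1, a secreted product of endothelial cells, had 5.96, 6.14, 5.91 and 6.19 at ZT16 and 5.76, 5.60, 5.64 and 5.74 at ZT12, and Vmn1r197, a vomeronasal receptor, averaged 3.63 ± 0.24 at ZT16 and 3.17 ± 0.15 at ZT12 (SD, n = 4 each), both with an adjusted p of 0.634 from limma. The genes of this paragraph were chosen after their values were seen.

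The arrays of the 2 time points resembled each other in the deposited, normalized values. Medians of the 8 arrays lay between 6.74 and 6.78, and Pearson correlations between pairs of them, taken across transcripts, between 0.987 and 0.993. The authors' quantile normalization itself brings arrays close together, so these values do not measure the quality of the RNA. The median correlation was 0.990 within ZT16, 0.991 within ZT12 and 0.990 between them. Only 1 of the 24 arrays stood apart, ZT0 replicate 4, with a median correlation to the others of 0.970. It enters the main comparison only through the shared spread, and enters the light step directly. Dopamine neurons were represented in all 8 punches. Th, the rate-limiting enzyme of dopamine synthesis, had 7.76, 7.50, 7.92 and 8.0 at ZT16 and 7.94, 7.52, 7.76 and 7.43 at ZT12. Slc6a3, the dopamine transporter, had 8.46, 8.09, 8.62 and 8.73 at ZT16 and 8.99, 8.02, 8.46 and 8.19 at ZT12. Both were above the median transcript in every array and their time points overlapped widely. Slc17a7, a glutamate transporter of cortical and hippocampal neurons, and Tph2, the enzyme of serotonin neurons, were also above that median, at 8.11-8.24 and 7.05-7.59 at ZT16 and 7.99-8.20 and 7.59-7.81 at ZT12.

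The direction of the differences depended on expression level. When transcripts were ranked by their mean over the 24 arrays and divided into 10 classes of equal size, the median difference was 0.02 in the lowest class (levels of 2.66-5.22), where 59.2% of transcripts were higher at ZT16. It was -0.05 in the highest class (8.54-13.7), where 20.4% were higher at ZT16. Accordingly, the transcripts at an unadjusted p under 0.05 that were higher at ZT16 had a median level of 6.12, and those that were lower 6.96. Above the median level, 120 of them were higher and 285 lower. The single arrays did not split by time point in this respect. In the highest class the 4 arrays of ZT16 deviated from the mean of all 24 arrays by -0.08, -0.01, -0.01 and -0.04, and those of ZT12 by 0.06, 0.06, 0.01 and -0.08. The array ZT12 replicate 4 thus lay with the arrays of ZT16. Without it the median difference of the highest class was -0.08, and after a cyclic loess normalization, chosen after seeing the data, all classes lay between -0.0038 and 0.0026. A list of highly expressed genes is therefore set beside the median of all transcripts of its level. This value is the median, over the list's members, of the median differences of their level classes.

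**Figure D1:**
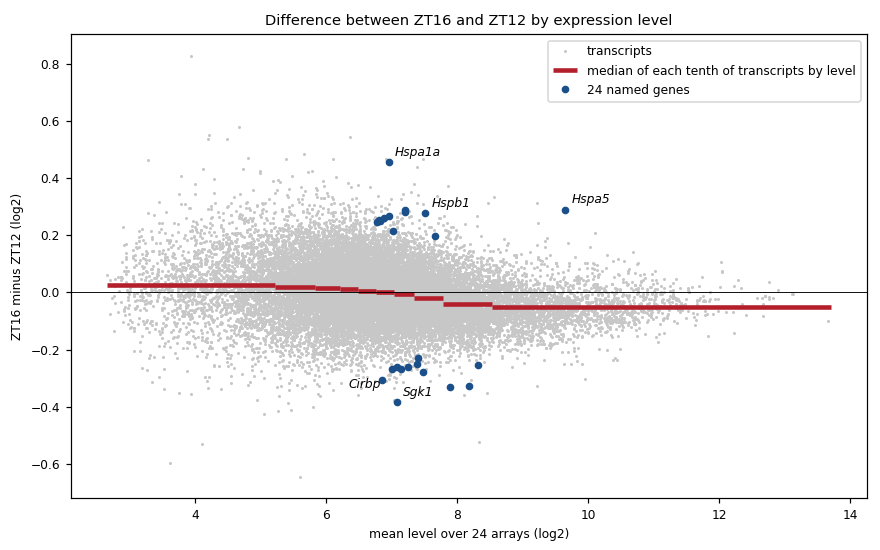
Difference between ZT16 and ZT12 (log2, vertical axis) against the mean level over 24 arrays (log2, horizontal axis) for 23410 transcripts (grey), with the median of each of 10 level classes (red bars) and the 24 named genes (blue). The red bars go from 0.02 at the lowest levels to -0.05 at the highest, and the named genes lie between 0.45 (Hspa1a) and -0.38 (Sgk1).

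In the absence of calls, 12 genes in each direction were singled out by a rule: the smallest p values among probe sets of 1 gene with a mean above the median level and with time points that did not overlap. None of these 24 genes passed the test. The smallest adjusted p among them from limma was 0.712, for Hspa1a, and all others had 0.9999. Of the 11705 transcripts above the median level, 96 did not overlap with ZT16 higher and 335 with ZT16 lower. Highly expressed transcripts in general lay lower at ZT16, as described above. Over all transcripts, the counts of 283 higher and 427 lower became 314 and 356 after cyclic loess normalization. They were 302 and 358 after further quantile normalization.

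**Figure D2:**
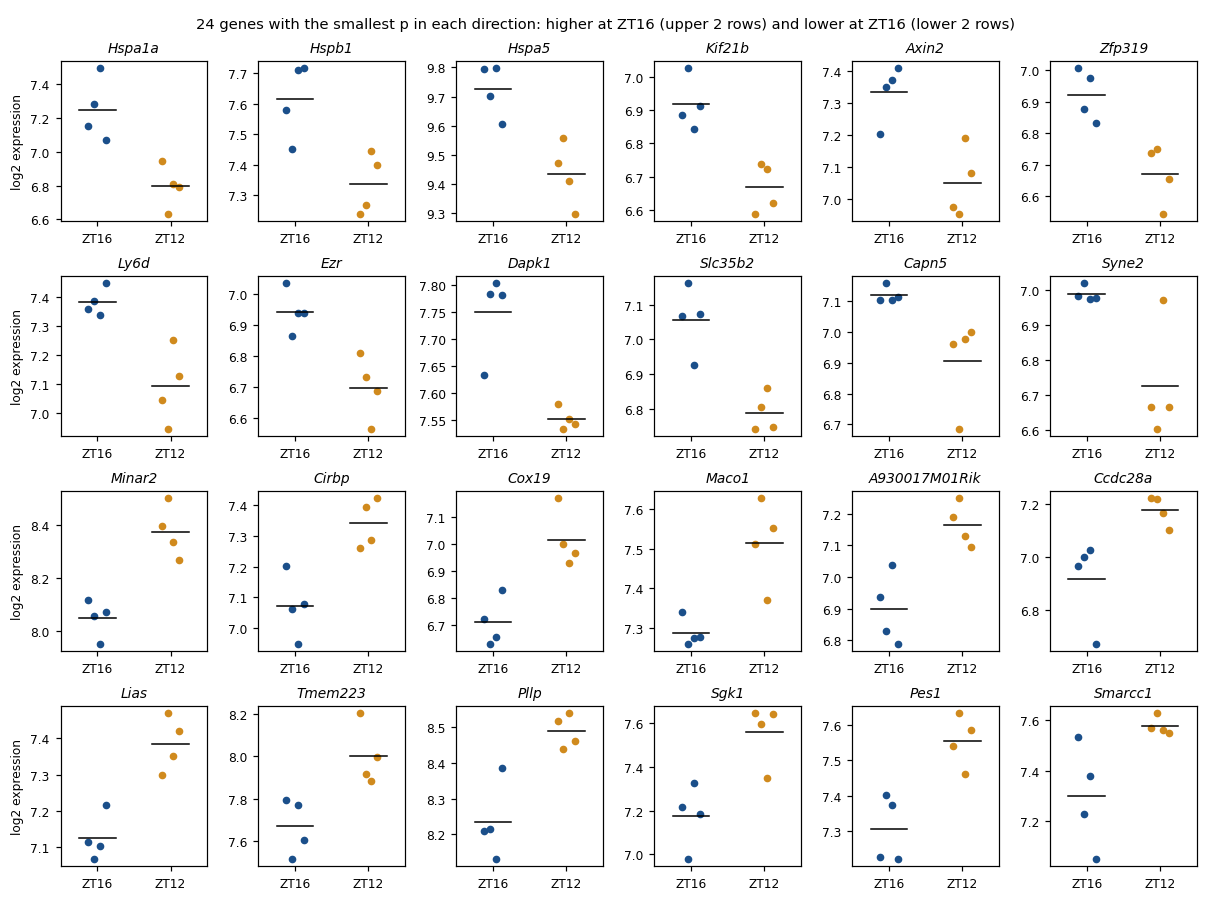
Log2 expression of the 24 named genes in the 4 mice at ZT16 (blue) and the 4 at ZT12 (orange), with the mean of each time point as a line; vertical axes differ between panels and do not start at 0. The rule chose genes whose time points do not overlap, as in Hspa1a with 7.07-7.50 at ZT16 and 6.63-6.95 at ZT12.

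The first 3 of the genes higher at ZT16 were chaperones. Hspa1a encodes the stress-inducible cytosolic Hsp70. It had 7.15, 7.28, 7.50 and 7.07 at ZT16 and 6.95, 6.63, 6.81 and 6.79 at ZT12. The difference was 0.45 ± 0.10 on the log2 scale (SE; 1.37-fold; 95% interval 0.24 to 0.67), with an adjusted p of 0.712 from limma. By the rule that named the gene, every array of ZT16 lay above every array of ZT12, so leaving out 1 array could not turn the sign. The value ran between 0.37 and 0.51 when any 1 of these arrays was left out. At ZT20 the mean was 6.87 ± 0.13 (SD, n = 4), 0.38 below ZT16. A second probe set does not separate Hspa1a from its near-identical copy Hspa1b. It read 8.0, 7.82, 8.04 and 7.99 at ZT16 and 7.84, 7.86, 7.75 and 7.93 at ZT12, an overlapping difference of 0.12 ± 0.09 (SE), so the size of the Hspa1a difference depends on the probe set.

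Hspb1, the small heat shock protein Hsp25, had 7.58, 7.45, 7.71 and 7.72 at ZT16 and 7.24, 7.27, 7.45 and 7.40 at ZT12, a difference of 0.28 ± 0.08 (SE; 1.21-fold). A second probe set of Hspb1 gave 0.31 ± 0.08, with time points that overlapped. Hspa5, the endoplasmic reticulum (ER) chaperone BiP, had 9.80, 9.70, 9.80 and 9.61 at ZT16 and 9.47, 9.56, 9.41 and 9.30 at ZT12, a difference of 0.29 ± 0.08 (SE; 1.22-fold). It had the highest level of the 24 genes and lay in the level class with the lowest median difference (-0.05).

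The promoters of these 3 genes are shown because they carry the response elements that their families are known for. Each is the 250 bases before the annotated start (RefSeq, GRCm38.p6), 5′ to 3′ on the gene's strand, with matches in capitals. The heat shock element was searched as GAANNTTC and the ER stress response element as CCAAT and CCACG with 9 bases between them, on both strands. The Hspa1a promoter (chr17:34972157-34972406, minus strand) holds 1 heat shock element, 104 to 97 bases before the start. The Hspb1 promoter (chr5:135887669-135887918, plus strand) holds 2, at 117 to 110 and 97 to 90 bases. The Hspa5 promoter (chr2:34771840-34772089, plus strand) holds 1 ER stress response element, 65 to 47 bases before the start.
Hspa1a: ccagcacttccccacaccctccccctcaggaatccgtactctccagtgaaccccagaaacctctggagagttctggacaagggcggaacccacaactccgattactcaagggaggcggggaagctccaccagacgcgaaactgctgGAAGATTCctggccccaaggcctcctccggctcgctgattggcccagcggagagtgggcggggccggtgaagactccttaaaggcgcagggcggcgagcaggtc
Hspb1: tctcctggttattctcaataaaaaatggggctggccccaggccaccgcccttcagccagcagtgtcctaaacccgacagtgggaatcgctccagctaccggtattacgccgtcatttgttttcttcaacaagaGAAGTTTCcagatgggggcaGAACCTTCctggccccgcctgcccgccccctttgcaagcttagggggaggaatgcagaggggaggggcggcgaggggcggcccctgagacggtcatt
Hspa5: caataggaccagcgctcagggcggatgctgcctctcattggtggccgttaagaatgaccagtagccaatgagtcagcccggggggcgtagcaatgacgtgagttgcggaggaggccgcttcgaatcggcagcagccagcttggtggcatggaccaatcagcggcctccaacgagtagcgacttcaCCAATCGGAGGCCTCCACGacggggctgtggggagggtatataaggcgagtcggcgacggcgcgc

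Over all 32851 RefSeq promoters of this length, 6.69% hold the heat shock element and 0.113% the ER stress response element. Counted by gene, over any of a gene's starts, 7.73% and 0.13% of 27025 genes hold them. Of the 24 named genes 18 had a promoter in the table, and Hspa1a, Hspb1 and Sgk1 held the heat shock element and Hspa5 the ER element. A match describes the sequence and does not show that a factor was bound.

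The heat shock list as a whole was divided. Of 31 measured genes 16 were higher and 15 lower at ZT16, with a median of 0.03 against -0.04 for all transcripts of that level, and 3 (9.68%) were higher at an unadjusted p under 0.05, against 2.4% of all transcripts. The third was Dnajb6, an Hsp40 co-chaperone, with a difference of 0.25 ± 0.12 (SE) and overlapping time points. Hspa2, a testis-enriched Hsp70, had 0.21 ± 0.10, and the small heat shock protein Cryab 0.24 ± 0.13. The list's median was -0.00606 without ZT16 replicate 3 and -0.00108 without ZT12 replicate 4, so its sign rested on single arrays.

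The ER chaperones and genes of the unfolded protein response lay more to one side, with 22 of 27 measured genes above 0 at ZT16 and 5 below. Their median was 0.08, against -0.02 for all transcripts of that level, and stayed between 0.07 and 0.09 with any 1 array left out and under each of the other normalizations. Single arrays of the 2 time points nonetheless overlapped. The list's median deviation from the mean of all 24 arrays ran from -0.0462 to 0.0676 at ZT16 and from -0.0832 to -0.00476 at ZT12. None passed the adjusted threshold, and 3 (11.1%) were higher at an unadjusted p under 0.05, against 2.4% of all transcripts. Besides Hspa5 these were Creld2, a disulfide isomerase of the ER, and Pdia4, which forms disulfide bonds in folding proteins. Creld2 had 7.06, 7.34, 7.35 and 7.40 at ZT16 and 7.06, 7.09, 7.15 and 7.11 at ZT12. Pdia4 had 7.03, 6.96, 7.08 and 6.73 at ZT16 and 6.69, 6.96, 6.56 and 6.73 at ZT12. In both genes the low arrays of ZT16 lay within the range of ZT12, and the differences were 0.19 ± 0.08 and 0.22 ± 0.10 (SE). Sdf2l1, an ER protein that works with Hspa5, had 0.16 ± 0.09. In 8 of the 24 genes with a promoter in the table (Calr, Canx, Creld2, Dnajc3, Hsp90b1, Hspa5, Pdia6 and Syvn1) the ER stress response element was found, against 0.13% of all genes. The list gathers genes of the response that this element belongs to, so the share depends on the choice of list.

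The cold-inducible pair was lower at ZT16. Cirbp had 7.20, 7.06, 6.95 and 7.08 at ZT16 and 7.26, 7.39, 7.29 and 7.42 at ZT12. The difference was -0.27 ± 0.07 (SE; 0.83-fold; 95% interval -0.42 to -0.12), the second by p of the genes named as lower at ZT16, with an adjusted p of 0.9999 from limma. Rbm3 had 9.43, 9.70, 9.47 and 9.49 at ZT16 and 9.84, 9.78, 9.69 and 9.51 at ZT12. Its time points overlapped, and its difference of -0.18 ± 0.11 (SE) had a 95% interval that included 0 (-0.41 to 0.05). Over the day both genes had their highest mean at ZT12. For Cirbp, which was named for a ZT12 mean above that of ZT16, ZT8 was close. It averaged 7.32 ± 0.13 at ZT8 and 7.34 ± 0.08 at ZT12 (SD, n = 4 each). None of the 4 motifs searched was found before either of the 2 starts of Cirbp.

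Sgk1, a kinase that regulates ion channels and is induced by serum and glucocorticoids, had the most negative difference of the 24 genes. It had 7.22, 6.98, 7.33 and 7.18 at ZT16 and 7.65, 7.60, 7.35 and 7.64 at ZT12, a difference of -0.38 ± 0.11 (SE; 0.767-fold; 95% interval -0.61 to -0.15). The array ZT12 replicate 3 lay close to the highest array of ZT16. The level at ZT16 was nonetheless above that of the light phase, with means of 6.80 ± 0.11 at ZT0, 6.74 ± 0.14 at ZT4 and 6.95 ± 0.15 at ZT8 (SD, n = 4 each). Of the 6 annotated starts of Sgk1 the fifth (chr10:21993640-21993889, plus strand) is shown because it holds a glucocorticoid response element, searched as GNACA and TGTNC with 3 bases between them, at 188 to 176 bases. The capitals also mark an E-box (CACGTG), the site of CLOCK and BMAL1, at 246 to 241 bases. A heat shock element overlaps the glucocorticoid element at 183 to 176 bases.
Sgk1: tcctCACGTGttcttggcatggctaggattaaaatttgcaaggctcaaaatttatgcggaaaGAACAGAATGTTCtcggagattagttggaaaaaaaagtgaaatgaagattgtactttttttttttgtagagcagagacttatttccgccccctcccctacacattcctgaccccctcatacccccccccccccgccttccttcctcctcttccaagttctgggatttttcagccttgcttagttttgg

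The glucocorticoid element is in 0.387% of all promoters (0.44% of genes) and the E-box in 6.02% (6.86% of genes). Of the 24 measured genes on the glucocorticoid-induced list, 21 had a promoter in the table and 3 (Map3k6, Mt1 and Sgk1) held the glucocorticoid element. The list gathers genes of this response, so the share depends on the choice of list.

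Further glucocorticoid-induced genes were lower at ZT16 by smaller amounts. Tsc22d3 (GILZ), an anti-inflammatory mediator of glucocorticoids, had 7.61, 7.80, 7.69 and 7.58 at ZT16 and 7.81, 7.90, 7.88 and 7.77 at ZT12. The transcription factor Klf9 had 7.23, 7.23, 7.36 and 7.46 at ZT16 and 7.59, 7.41, 7.66 and 7.38 at ZT12. The metal-binding protein Mt2 had 9.79, 9.93, 10.03 and 9.80 at ZT16 and 10.07, 10.18, 9.98 and 10.08 at ZT12. The time points of these 3 genes overlapped, and their differences were -0.17 ± 0.07, -0.19 ± 0.08 and -0.19 ± 0.09 (SE). With Sgk1 they were the 4 of 24 measured genes (16.7%) lower at an unadjusted p under 0.05, against 2.17% of all transcripts, and 0 were higher. The other members were divided, 11 of 24 above 0 in all, and the median was -0.01, against 0.00290 for all transcripts of that level. Sgk1, Tsc22d3, Klf9 and Mt2 had their highest mean of the 6 time points at ZT12. They were picked for a ZT12 mean above that of ZT16, so this partly repeats the choice and is a description.

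**Figure D3:**
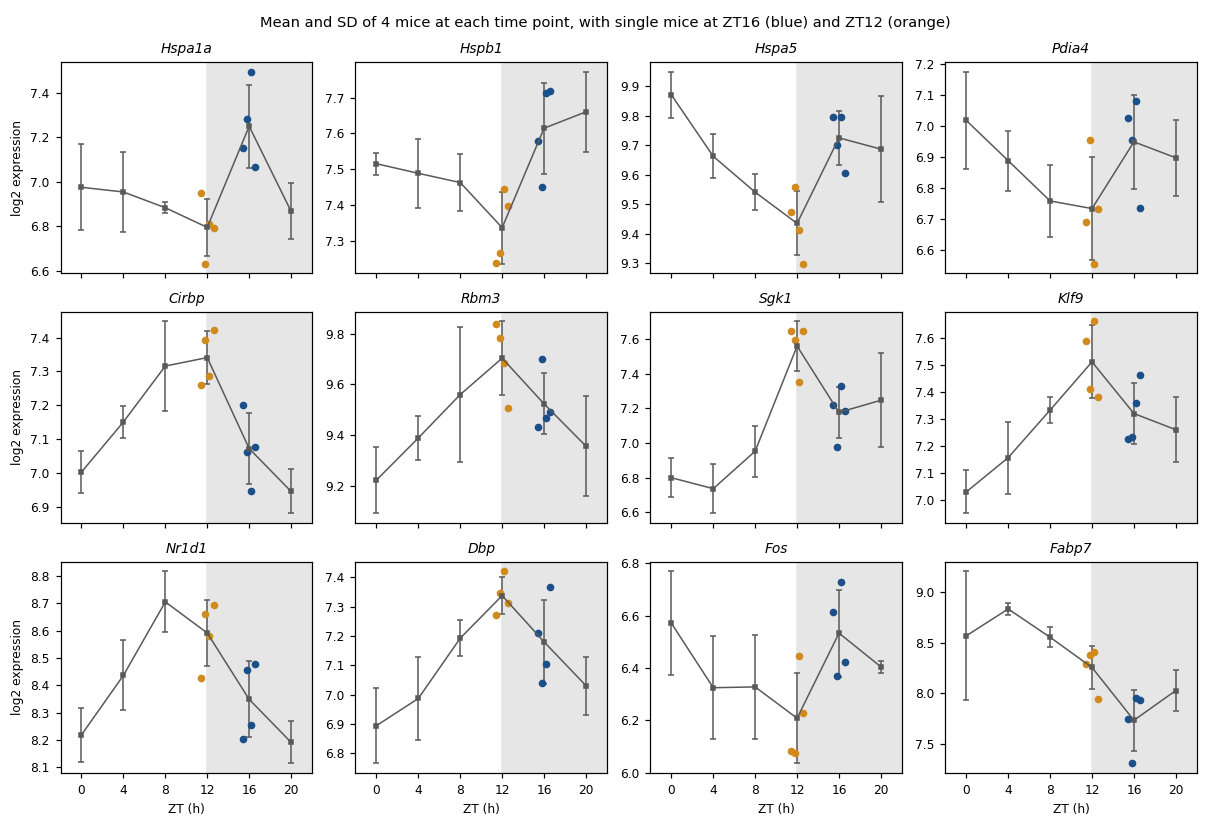
Log2 expression over the day for 12 genes: grey squares and bars are the mean and SD of 4 mice at each ZT (h), points are single mice at ZT16 (blue) and ZT12 (orange), and shading marks the dark phase; vertical axes differ and do not start at 0. Hspa1a stands at 7.25 at ZT16 and 6.80 at ZT12. Cirbp, Sgk1 and Klf9, described for a ZT12 mean above that of ZT16, have their highest mean at ZT12. For Cirbp that mean (7.34) is close to the one at ZT8 (7.32).

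Of the other genes higher at ZT16, Axin2, a scaffold of the beta-catenin destruction complex that Wnt signalling itself induces, had 7.20, 7.35, 7.37 and 7.41 at ZT16 and 6.98, 6.96, 7.19 and 7.08 at ZT12. Kif21b, a neuronal kinesin, had 6.89, 7.03, 6.84 and 6.91 at ZT16 and 6.59, 6.74, 6.72 and 6.62 at ZT12. Ezr, which links the cell membrane to actin, had 7.04, 6.86, 6.94 and 6.94 at ZT16 and 6.81, 6.73, 6.56 and 6.69 at ZT12. The time points lay next to each other without overlap, and the differences were 0.28 ± 0.08, 0.25 ± 0.07 and 0.25 ± 0.08 (SE). The remaining 6 were Zfp319, Ly6d, Dapk1 (a calmodulin-dependent kinase), Slc35b2 (the sulfate donor transporter of the Golgi), Capn5 (a calpain protease) and Syne2 (nesprin-2 of the nuclear envelope), with differences of 0.20 (Dapk1) to 0.29 (Ly6d). Other probe sets did not always agree in size. A second one of Zfp319 gave 0.02 ± 0.09, and 3 further ones of Syne2 gave 0.24, 0.21 and -0.03.

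Among the genes named as lower at ZT16, Minar2 had the smallest p, with 8.12, 8.06, 7.95 and 8.07 at ZT16 and 8.40, 8.50, 8.33 and 8.27 at ZT12 (difference -0.33 ± 0.08, SE). Mitochondrial proteins were represented by Cox19, which assembles cytochrome c oxidase, and Lias, which makes lipoic acid. Cox19 had 6.72, 6.63, 6.66 and 6.83 at ZT16 and 7.17, 7.0, 6.93 and 6.97 at ZT12. Lias had 7.11, 7.07, 7.10 and 7.22 at ZT16 and 7.30, 7.47, 7.35 and 7.42 at ZT12. The differences were -0.31 ± 0.08 and -0.26 ± 0.07 (SE). Pllp, the myelin protein plasmolipin, had 8.21, 8.21, 8.13 and 8.39 at ZT16 and 8.52, 8.44, 8.54 and 8.46 at ZT12 (-0.25 ± 0.07, SE). The other 6 were Maco1 (a neuronal ER membrane protein), A930017M01Rik (annotated as a transcribed pseudogene), Ccdc28a, Tmem223, Pes1 (ribosome biogenesis) and Smarcc1 (a core subunit of the SWI/SNF complex), with differences of -0.23 (Maco1) to -0.33 (Tmem223). At ZT20, Ccdc28a averaged 7.15 ± 0.05 and Maco1 7.43 ± 0.02 (SD, n = 4 each), against 6.92 ± 0.16 and 7.29 ± 0.04 at ZT16.

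No core clock gene passed the adjusted threshold between the 2 time points. Of 17 measured core clock genes 8 were higher and 9 lower at ZT16, with a median of -0.02, as for all transcripts of that level (-0.02). The median was 0.00282 without ZT12 replicate 3 and 0.00047 after further quantile normalization. The list joins activators and repressors, so neither the split nor the median shows whether the clock moved. Nr1d1 (Rev-erb alpha), a repressor of Arntl, was the 1 gene past an unadjusted p of 0.05 (5.88% of the list lower, against 2.17% of all transcripts). It had 8.20, 8.46, 8.25 and 8.48 at ZT16 and 8.43, 8.66, 8.58 and 8.69 at ZT12, a difference of -0.24 ± 0.08 (SE; 0.845-fold) with overlapping time points and an adjusted p of 0.9999 from limma. The next were the nuclear receptor Rora and the repressor Per1, both at -0.13 with SEs of 0.07 and 0.08. Per2, a repressor known to peak around this phase in many tissues, had 6.78, 6.73, 6.79 and 6.81 at ZT16 and 6.82, 6.74, 6.79 and 6.74 at ZT12, a difference of 0.00463 with a 95% interval of -0.16 to 0.17. Differences of the activators Arntl (0.06) and Clock (0.05), of the repressors Cry1 (-0.07), Cry2 (0.01), Per3 (0.02), Nr1d2 (-0.02), Ciart (-0.13), Bhlhe40 (0.02) and Bhlhe41 (0.11), of Rorb (-0.03), of the ubiquitin ligase subunit Fbxl21 (0.12) and of the kinases Csnk1d (-0.05) and Csnk1e (-0.06) had 95% intervals that included 0. The E-box was in the promoters of 4 of the 14 core clock genes found in the table (Bhlhe41, Ciart, Cry1 and Per1), against 6.86% of all genes. The list includes genes that CLOCK and BMAL1 drive, so here too the share depends on the choice of list.

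Of 10 clock output genes 3 were higher and 7 lower at ZT16, and 0 were past an unadjusted p of 0.05. Over all transcripts 4.57% were past it, a share at which 10 genes can hold 0. Dbp, the D-box activator, had 7.21, 7.04, 7.10 and 7.37 at ZT16 and 7.27, 7.35, 7.42 and 7.31 at ZT12, a difference of -0.16 ± 0.08 (SE). The glycogen-targeting subunit Ppp1r3c had -0.19 ± 0.10, and Tef (-0.09), Hlf (-0.01), Nfil3 (-0.11), Nampt (-0.18), Usp2 (-0.02), Ppara (0.02), Wee1 (0.03) and Tspan4 (0.01) likewise had intervals that included 0. Of the clock and output genes, the signs of Per2, Per3, Cry2, Clock, Nr1d2, Rorb, Bhlhe40, Hlf, Usp2, Wee1 and Tspan4 turned with 1 array left out, and those of Nr1d2, Hlf and Per2 also under another normalization.

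Immediate early genes, which neurons transcribe within minutes of activity, were balanced, with 21 of 43 above 0 at ZT16 and a median of -0.01 that was 0.000504 after cyclic loess and up to 0.00624 with 1 array of ZT16 left out. Fos had 6.61, 6.37, 6.73 and 6.42 at ZT16 and 6.08, 6.08, 6.44 and 6.23 at ZT12, a difference of 0.33 ± 0.11 (SE; 1.25-fold) in which 2 arrays of ZT16 lay below the highest of ZT12. The nuclear receptor Nr4a1 had 6.77, 6.70, 6.91 and 6.65 at ZT16 and 6.39, 6.44, 6.56 and 6.48 at ZT12, without overlap (0.29 ± 0.11, SE). Both genes lay below the median level of the array. With Sgk1 on the other side, 3 of the 43 genes were past an unadjusted p of 0.05, 2 higher (4.65%, against 2.4% of all transcripts) and 1 lower (2.33%, against 2.17%).

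Genes of energy metabolism were mostly lower at ZT16, as were highly expressed transcripts in general. Of 21 citric acid cycle genes 18 were below 0 (median -0.10, against -0.05 for their level), of 20 glycolysis genes 17 (-0.06, against -0.05), and of 74 nuclear genes of oxidative phosphorylation 54 (-0.05, against -0.05). After cyclic loess normalization these medians were -0.06, -0.02 and -0.01. Sucla2, a subunit of succinyl-CoA synthetase, had 9.87, 9.68, 9.89 and 9.64 at ZT16 and 10.18, 10.10, 10.09 and 9.92 at ZT12, without overlap (-0.30 ± 0.09, SE). Tpi1, triosephosphate isomerase, had 9.35, 9.46, 9.45 and 9.47 at ZT16 and 9.80, 9.72, 9.67 and 9.55 at ZT12, also without overlap (-0.25 ± 0.11, SE). These were the only genes past an unadjusted p of 0.05 in the citric acid cycle (4.76%) and glycolysis (5%) lists, against 2.17% of all transcripts, and oxidative phosphorylation had 0. The median of the oxidative phosphorylation genes was -0.0858 without ZT12 replicate 4 and -0.00364 without ZT16 replicate 1. The 56 cytosolic ribosomal protein genes had a median of -0.04, against -0.05 for their level, and 0.01 after either further quantile normalization or cyclic loess.

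Cholesterol synthesis, which in the brain serves myelin and synapses, had a median of -0.10, against -0.02 for all transcripts of that level, with 16 of 22 genes below 0. The median was -0.07 after cyclic loess and ran between -0.136 and -0.0576 with 1 array left out, the smallest size without ZT12 replicate 2. At an unadjusted p under 0.05, 3 genes (13.6%) were lower, against 2.17% of all transcripts. Hmgcs1, the HMG-CoA synthase, had 8.54, 8.64, 8.48 and 8.78 at ZT16 and 8.81, 8.94, 8.82 and 8.77 at ZT12. Mvd, which forms isopentenyl pyrophosphate, had 6.74, 6.48, 6.43 and 6.47 at ZT16 and 6.78, 6.65, 6.78 and 6.77 at ZT12. The sterol reductase Tm7sf2 had 6.29, 6.21, 6.11 and 6.27 at ZT16 and 6.42, 6.38, 6.34 and 6.43 at ZT12, without overlap. In Hmgcs1 and Mvd 1 array of ZT16 reached into the range of ZT12, and the 3 differences were -0.22 ± 0.09, -0.22 ± 0.10 and -0.18 ± 0.07 (SE). Fabp7, a fatty acid carrier of astrocytes, had 7.74, 7.30, 7.95 and 7.93 at ZT16 and 8.29, 8.38, 8.41 and 7.94 at ZT12. Its difference of -0.52 ± 0.19 (SE; 0.696-fold) was the most negative among transcripts above the median level, and 1 array of ZT16 overlapped with ZT12 replicate 4.

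**Figure D4:**
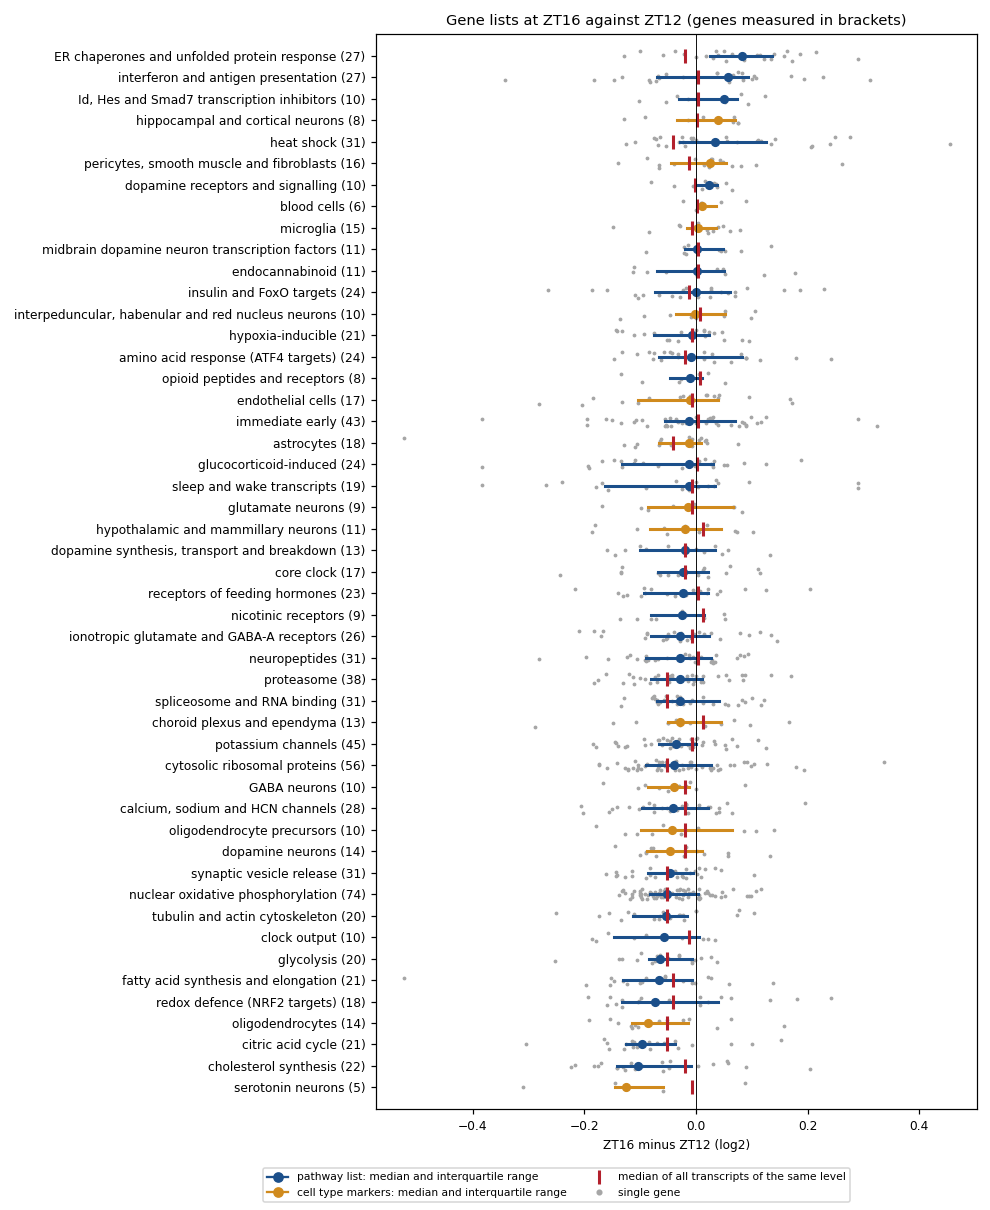
Difference between ZT16 and ZT12 (log2) of the gene lists with at least 5 measured genes. Grey points are genes, and coloured points and bars the median and interquartile range (blue for pathways, orange for cell type markers). Red marks are the median, over a list's members, of the median differences of their level classes. The ER chaperones have the highest median (0.08) and lie right of their red mark, whereas oxidative phosphorylation (-0.05) lies on it.

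Genes of dopamine and reward signalling were divided, and those of channels and synapses lay mostly below 0 at ZT16. Of all 23410 transcripts 12468 were also below 0. Of the synaptic vesicle genes 22.6% were above 0, close to the 20.4% of the highest level class. Of 13 genes of dopamine synthesis, transport and breakdown 5 were higher and 8 lower at ZT16, and 0 passed an unadjusted p of 0.05, against 4.57% of all transcripts. Th differed by 0.13 ± 0.14 (SE), with 0.06 without ZT12 replicate 4 and 0.23 without ZT16 replicate 2. Slc6a3 differed by 0.06 ± 0.20 (SE), turning to -0.08 without ZT12 replicate 2 and reaching 0.25 without ZT12 replicate 1, and the spread between punches of one time point was larger than either. The list's median of -0.02 was 0.02 after cyclic loess, 0.01 after further quantile normalization, 0.000723 without ZT16 replicate 1 and 0.03 without ZT12 replicate 1, the array with the highest Slc6a3. Dopamine receptors and their signalling (10 genes), opioid peptides and receptors (8), nicotinic receptors (9) and the endocannabinoid system (11) had 0 genes past an unadjusted p of 0.05. Over all transcripts 4.57% were past it, so lists this short can hold 0 without differing from the rest. Of the 23 receptors for feeding hormones 15 were below 0. Only Gipr, the receptor of the gut hormone GIP, was past an unadjusted p of 0.05, higher by 0.20 ± 0.09 (SE; 4.35% of the list, against 2.4% of all transcripts). In 3 of them, the orexin receptor Hcrtr1 (-0.14 ± 0.08), the melanin-concentrating hormone receptor Mchr1 (-0.13 ± 0.07) and the adiponectin receptor Adipor1 (-0.12 ± 0.07, SE), the time points did not overlap with ZT16 lower, against 1.82% of all transcripts, and 0 did so with ZT16 higher. These 3 were chosen after their values were seen. Of 45 potassium channel genes 34 were below 0 (median -0.04, against -0.01 for their level, and -0.0205 without ZT12 replicate 2), of 28 calcium, sodium and HCN channel genes 19 (-0.04, against -0.02, and -0.025 without ZT16 replicate 1), of 31 neuropeptides 21 (-0.03, against 0.0037, and -0.0146 without ZT12 replicate 4), of 26 ionotropic glutamate and GABA-A receptor subunits 17 (-0.03, against -0.01, and -0.00542 without ZT12 replicate 2) and of 31 genes of synaptic vesicle release 24 (-0.05, against -0.05). Past an unadjusted p of 0.05, 2 potassium channel genes, 2 receptor subunits and 1 calcium, sodium or HCN channel gene were lower, against 2.17% of all transcripts, and 0 genes of these 5 lists were higher. The glutamate receptor subunits Grin2a (-0.21 ± 0.09) and Grin2b (-0.18 ± 0.09) and the A-type potassium channel Kcnd2 (-0.18 ± 0.08, SE) were among them. Kcnd2 had 8.39, 8.32, 8.21 and 8.34 at ZT16 and 8.53, 8.53, 8.45 and 8.47 at ZT12, without overlap. Among genes of the actin and tubulin cytoskeleton, Actb (-0.17 ± 0.08), Tubb3 (-0.16 ± 0.07) and Tmsb10 (-0.25 ± 0.09, SE) were the 3 of 20 (15%) lower at an unadjusted p under 0.05, against 2.17% of all transcripts, in a list whose median (-0.05) equalled that of its level. Of 27 genes of interferon response and antigen presentation 16 were above 0, with a median of 0.06 that was -0.0058 without ZT12 replicate 4. The guanylate-binding protein Gbp4 had 5.97, 5.95, 5.82 and 5.75 at ZT16 and 6.02, 6.33, 6.36 and 6.15 at ZT12 (-0.34 ± 0.09, SE), and Irgm1 was higher by 0.23 ± 0.09.

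Markers of cell types describe the make-up of the punches. Of the 15 lists, 6 had genes that were lower at an unadjusted p under 0.05, against 2.17% of all transcripts: 2 of 17 for endothelial cells and 1 each of 18 for astrocytes, of 14 for oligodendrocytes, of 10 for oligodendrocyte precursors, of 11 for hypothalamic and mammillary neurons and of 5 for serotonin neurons. Higher was 1 of 16 markers of pericytes, smooth muscle and fibroblasts, against 2.4% of all transcripts. Of the 10 GABA neuron markers 9 were below 0 (median -0.04, against -0.02 for their level, and -0.0116 after cyclic loess). The levels of the 14 dopamine neuron markers summed to 104.3-107.2 at ZT16 and 105.1-109.3 at ZT12, with a median difference of -0.05 that was 0.00679 without ZT16 replicate 2 and 0.03 without ZT12 replicate 1. Those of the 14 oligodendrocyte markers summed to 128.0-129.9 at ZT16 and 128.4-131.1 at ZT12 (median -0.09, against -0.05 for their level), and those of the 15 microglia markers to 105.5-106.9 at ZT16 and 105.8-106.2 at ZT12 (median 0.00355, and -0.00408 without ZT16 replicate 4). The 18 astrocyte markers had a median of -0.01 that was 0.02 after cyclic loess or further quantile normalization. The 5 serotonin neuron markers had a median of -0.13, and -0.0578 without ZT12 replicate 2, and summed to 35.9-36.9 at ZT16 and 36.8-37.3 at ZT12. Tph2 had 7.05, 7.59, 7.54 and 7.39 at ZT16 and 7.59, 7.81, 7.71 and 7.71 at ZT12 (-0.31 ± 0.12, SE, and -0.20 without ZT16 replicate 1). The part of cell make-up in the differences of other genes was not tested.

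The step was also set against the first 4 h of light, which shares no array with it. The difference between the dark step (ZT16 minus ZT12) and the light step (ZT4 minus ZT0) passed an adjusted p of 0.05 in 0 transcripts (0%), and an unadjusted p of 0.05 in 944 (4.03%), 483 with a more positive (2.06%) and 461 with a more negative dark step (1.97%). The light step itself had 0 calls (0%) and 576 transcripts (2.46%) at an unadjusted p under 0.05, 305 higher (1.3%) and 271 lower (1.16%) at ZT4. The genes with the smallest p for the difference were Usf1, Ccdc180 and Hspa5, the first 2 chosen after their values were seen. Hspa5, Cirbp, Hspa1a and the other named genes were chosen by their dark step, and Nr1d1, Fos and Fabp7 are described here for theirs, so that their values below contain the one that chose them and are a description. Of the 24 named genes 12 had the same sign in both steps and 12 opposite signs. Ezr had 0.25 in the dark and 0.12 in the light (a difference of 0.13 ± 0.11, SE), and Dapk1 0.20 and 0.11 (0.09 ± 0.09). In Usf1, an E-box-binding factor, the dark step was -0.18 and the light step 0.49. In Hspa5 the dark step was 0.29 and the light step -0.21, a difference between steps of 0.50 ± 0.11 (SE) and 0.53 ± 0.12 without ZT0 replicate 4. Cirbp showed the reverse signs, -0.27 in the dark and 0.15 in the light (-0.42 ± 0.10, and -0.43 without that array). Nr1d1 had -0.24 in the dark and 0.22 in the light (-0.46 ± 0.12, and -0.51 without that array), Fos 0.33 and -0.25 (0.57 ± 0.16, and 0.47), and Hspa1a 0.45 and -0.02 (0.48 ± 0.15, and 0.55). The dark-minus-light value of Fabp7 rested in part on that array, at -0.79 ± 0.27 with it and -0.48 ± 0.18 without it. None of these differences passed the adjusted threshold.

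Set within the whole day, the 24 genes followed several courses, and the steps that follow and precede this one use the same arrays. From ZT16 to ZT20, 0 transcripts (0%) passed the adjusted threshold and 905 (3.87%) the unadjusted one, 494 higher (2.11%) and 411 lower (1.76%) at ZT20. From ZT8 to ZT12 these counts were 0 (0%) and 819 (3.5%), 394 higher (1.68%) and 425 lower (1.82%) at ZT12. Hspa1a (-0.38 from ZT16 to ZT20) and Ezr (-0.30) were close to their ZT12 means again at ZT20, with 6.87 ± 0.13 and 6.64 ± 0.08 (SD, n = 4 each). Hspb1 (0.05), Hspa5 (-0.04), Axin2 (0.0013) and Kif21b (-0.03) stayed near their ZT16 means. Hspa5 had its highest mean at ZT0 (9.87 ± 0.08) and its lowest at ZT12 (9.44 ± 0.11; SD, n = 4 each). Sgk1 was higher at ZT12 than at ZT8 by 0.61, with an adjusted p of 0.243 from limma for that step, the smallest of all transcripts, and 0.07 higher at ZT20 than at ZT16.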

How the data were processed

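The authors hybridised RNA of 24 VTA punches (6 time points, 4 mice each) to Affymetrix Mouse Gene 1.0 ST arrays, 1 array per mouse per the numbered labels. The deposited values are log2 expression per probe set, made by the authors with RMA (background correction, quantile normalization and probe summary) in R 2.13.1, per the labels. RMA compresses small changes of weakly detected probe sets, and the number of arrays limits the precision. Values lay between 2.27 and 14.1. The genome build of the probe sets is not given in the sources used here.

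Of 35556 probe sets, 23410 carried a gene in the platform annotation (21789 one gene, 1621 several) and were tested. Of these, 242 repeat the values of another. Symbols were updated through a gene table of GRCm38.p6, which matched 21698 of them. Columns without a sample numbered 0.

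The values were used as deposited. A limma model (limma 3.58.1, R 4.3.3) of all 24 arrays as 6 groups, with moderated variances (26.05 degrees of freedom), gave ZT16 minus ZT12, ZT4 minus ZT0, their difference, ZT20 minus ZT16 and ZT12 minus ZT8, each adjusted by Benjamini-Hochberg over the 23410 transcripts and called at an adjusted p under 0.05. The p-values weigh each difference against the spread between these mice within time points, pooled over all 6 groups and moderated. The scripts were tested on simulated data. Higher and lower describe measured means, called or not.

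Genes were named by a rule: all called genes (none), otherwise the 12 of smallest p per direction among probe sets of 1 gene with a mean above the median and non-overlapping groups, then clock and clock output genes and up to 4 members of smallest p of each list described. Genes of the 51 lists (36 of pathways and 15 of cell types) are represented by their single-gene probe set of highest mean. The members, lists and tests were chosen with earlier results of these data known, so that no list is independent support. Alternatives were other normalizations, array weights, a filter on level, all probe sets, other variance models, a replicate block and leaving out each array.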

Additional observations from a re-analysis of the deposited data

Results flagged for a closer look

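Among 176 groups of 4 arrays (genes described in the text, at ZT16 and at ZT12), 14 held 1 array that lay far from the other 3 by Dixon's criterion at the 95% level, where chance gives about 1 in 20 groups. At ZT16, Dapk1 was 7.63 in replicate 1 and 7.78-7.80 in the others, Creld2 7.06 in replicate 1 and 7.34-7.40 in the others, Tpi1 9.35 in replicate 1 and 9.45-9.47 in the others, and Nampt 7.36 in replicate 1 and 7.71-7.75 in the others. Also at ZT16, Syne2 was 7.02 in replicate 2 and 6.97-6.98 in the others, Grin2b 7.15 in replicate 2 and 6.91-6.94 in the others, Per1 6.69 in replicate 3 and 6.53-6.55 in the others, and Ccdc28a 6.67 in replicate 4 and 6.97-7.03 in the others. At ZT12, Capn5 was 6.69 in replicate 2 and 6.96-7.0 in the others, Mvd 6.65 in replicate 2 and 6.77-6.78 in the others, Hcrtr1 6.93 in replicate 2 and 6.69-6.73 in the others, Syne2 6.97 in replicate 3 and 6.60-6.67 in the others, Irgm1 6.18 in replicate 3 and 5.79-5.85 in the others, and Sgk1 7.35 in replicate 3 and 7.60-7.65 in the others. At ZT16 replicate 1 was the low array in 4 genes (Dapk1, Creld2, Tpi1 and Nampt), and its correlation with the other arrays lay within the range of the remaining ones.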

How the results depend on the processing

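The count of 0 transcripts at an adjusted p under 0.05 was the same in all settings, both for ZT16 against ZT12 (smallest adjusted p from limma 0.192-1 with 1 array left out and 0.295-0.958 otherwise) and for the dark step against the light step (0.29-1 and 0.12-1). Of 1654 values of single genes under the alternatives, 1617 kept their direction and 37 did not, all of them of Slc6a3 and of 11 clock and output genes whose difference was close to 0 as reported. Part of this agreement was fixed in advance, so the tally does not measure robustness. Other variance models, other sets of probe sets, the replicate block and arrays of other time points could not change a difference. Genes named for time points without overlap could not turn with 1 array left out. Counts at an unadjusted p under 0.05 moved by over 1.5 times only with the number of probe sets tested. With array weights, over the same transcripts, they were 1523 for ZT16 against ZT12 and 1357 for the dark against the light step (584 with a more positive and 773 with a more negative dark step). Over all 35556 probe sets they were 1714 (919 higher, 795 lower) for ZT16 against ZT12 and 1459 for the dark against the light step, and over the 11705 above the median level 462 (132 higher, 330 lower) and 444. With 1 array left out they were 856-1351 and 809-1412, the highest without ZT0 replicate 4, and non-overlapping transcripts numbered 1192-2046 because fewer arrays make separation easier, the highest without ZT12 replicate 4.

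Further normalization moved some list medians (log2). With further quantile normalization they were -0.022 for glucocorticoid-induced genes, 0.0235 for insulin and FoxO targets, 0.0173 for spliceosome, -0.0114 for synaptic vesicle, -0.0141 for GABA neuron and 0.0182 for astrocyte genes. With cyclic loess, chosen after seeing the data, they were -0.0184, 0.0203, 0.0161, -0.00271, -0.0116 and 0.0204 in the same order, and with centred medians -0.0161 for glucocorticoid-induced genes. With 1 array left out, medians ranged over -0.051 to -0.0217 (glucocorticoid-induced), -0.0701 to -0.00783 (spliceosome), -0.0783 to 0.0101 (nicotinic receptors), -0.037 to -0.0205 (potassium channels), -0.065 to -0.025 (calcium, sodium and HCN channels), -0.0058 to 0.0513 (interferon), -0.0487 to 0.00788 (hypoxia), -0.074 to -0.0296 (GABA neurons), -0.00988 to 0.0259 (interpeduncular, habenular and red nucleus neurons), -0.0338 to 0.00125 (hypothalamic neurons) and -0.065 to -0.0107 (astrocytes). The cause of these shifts was not tested.

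The genes whose direction turned gave these differences. With array weights, Slc6a3 had -0.0046, Per2 -0.0028, Per3 -0.023 and Bhlhe40 -0.0013. Further quantile normalization gave 0.029 for Nr1d2 and 0.025 for Hlf, and cyclic loess 0.027 and 0.022 for these and -0.0011 for Per2. With 1 array left out the values ranged over -0.075 to 0.25 for Slc6a3 (the highest without ZT12 replicate 1), -0.0068 to 0.096 for Clock, -0.0074 to 0.019 for Per2, -0.019 to 0.064 for Per3, -0.051 to 0.077 for Cry2, -0.11 to 0.042 for Nr1d2, -0.069 to 0.0040 for Rorb, -0.032 to 0.079 for Bhlhe40, -0.038 to 0.0071 for Hlf, -0.038 to 7.1e-05 for Usp2, -0.031 to 0.093 for Wee1 and -0.020 to 0.037 for Tspan4.

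The replicate numbers did not pair the mice: deviations of same-numbered arrays of ZT16 and ZT12 correlated at -0.04, 0.12, -0.02 and 0.06. With the replicate block, counts at an adjusted p under 0.05 remained 0 (smallest 0.742 and 0.806 from limma), and counts at an unadjusted p were 1116 for ZT16 against ZT12 and 1007 for the dark against the light step. The block changed no call.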
